A study of Mus musculus with 12 samples.

Results

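ATF6b knockout colon was compared with wild-type colon on all 8 arrays that carry these genotypes, 4 of ATF6bKO and 4 of WT, out of 12 arrays in the series. The samples were taken by their titles and not by a measured value, although earlier results of these data were known when they were chosen. Each array is a single-colour Agilent whole-genome expression array hybridised with Cy3-labelled RNA from the colon of a male C57BL/6J mouse. For ATF6bKO the labels give 2 untreated samples (UT) and 2 samples of mice that drank 3% dextran sulfate sodium (DSS) for 3 days, which damages the lining of the colon. The 4 WT samples are also titled as 2 UT and 2 DSS, but their descriptions and treatment fields say the opposite of their titles. The genotype difference was therefore taken as the mean of the 2 ATF6bKO treatment groups minus the mean of the 2 WT groups, which is the same under either reading. The 4 ATF6aKO arrays, 2 UT and 2 DSS, lack the related gene Atf6 and serve here only to show where the values of ATF6bKO differ from those of another knockout. The labels name each knockout by its genotype alone, with no allele, age or number of founders, and do not say that 2 arrays of a group come from different mice, so p-values measure only how far these arrays spread, and that spread may be technical.

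Each genotype was hybridised on a slide of its own and scanned on its own, and the WT slide carries an older version of the array design. Genotype and slide therefore coincide, and a difference between ATF6bKO and WT colon cannot be told apart from a difference between slides. The 75th percentile of intensity was 686 to 1190 on the WT arrays, 246 to 392 on the ATF6bKO arrays and 449 to 620 on the ATF6aKO arrays. Between 65.5% and 70.7% of probes were well above background on the ATF6bKO arrays, against 66.9% to 76.3% on the WT arrays, and no probe was saturated. Correlations of arrays were taken across tested genes with a value on every array, each by its brightest probe. They ran from 0.9526 to 0.9859 within ATF6bKO, from 0.9418 to 0.9896 within WT and from 0.8917 to 0.9649 between them.

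ATF6b is a membrane protein of the endoplasmic reticulum (ER) and a relative of ATF6a, the product of Atf6. When unfolded proteins build up in the ER, proteins of this family move to the Golgi, are cut by the site-1 and site-2 proteases and release a fragment that enters the nucleus. That fragment binds, with the factor NF-Y, a promoter sequence called the ER stress element, which is known from genes of ER chaperones and of ER-associated degradation. ATF6a is regarded as the stronger activator of these genes. The colonic epithelium secretes large amounts of mucin and antimicrobial protein and so depends on protein folding in the ER.

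The ER stress element was searched as CCAAT, any 9 bases and CCACG, with its shorter form ERSE-II as ATTGG, any 1 base and CCACG, on both strands of RefSeq promoter windows of 300 bases (build GRCm38.p6). The longer element was found in 39 of 32851 windows (0.119%). Among genes with a window it was found in 8 of 24 ER chaperones and folding enzymes (33.3%), in 2 of 15 genes of ER-associated degradation (13.3%) and in 37 of 27025 genes in all (0.137%). Windows of 3 genes whose values are described further on are shown, 5′ to 3′ on the gene's strand, with the element in capitals, because they represent 3 different outcomes in ATF6bKO colon.

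Hspa5 promoter, chr2:34771840-34772139, plus strand: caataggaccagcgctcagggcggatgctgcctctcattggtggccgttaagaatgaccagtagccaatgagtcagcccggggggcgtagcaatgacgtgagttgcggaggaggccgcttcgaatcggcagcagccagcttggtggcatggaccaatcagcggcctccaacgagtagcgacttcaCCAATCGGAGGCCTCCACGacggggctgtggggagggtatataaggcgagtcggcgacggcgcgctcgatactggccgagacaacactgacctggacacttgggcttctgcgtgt

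Creld2 promoter, chr15:88819396-88819695, plus strand: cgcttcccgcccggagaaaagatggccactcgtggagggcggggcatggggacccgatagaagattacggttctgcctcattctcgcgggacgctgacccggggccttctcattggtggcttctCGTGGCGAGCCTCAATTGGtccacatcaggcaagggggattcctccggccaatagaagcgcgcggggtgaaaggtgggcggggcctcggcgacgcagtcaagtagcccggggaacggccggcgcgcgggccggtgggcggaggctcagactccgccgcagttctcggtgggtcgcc

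Syvn1 promoter, chr19:6046326-6046625, plus strand: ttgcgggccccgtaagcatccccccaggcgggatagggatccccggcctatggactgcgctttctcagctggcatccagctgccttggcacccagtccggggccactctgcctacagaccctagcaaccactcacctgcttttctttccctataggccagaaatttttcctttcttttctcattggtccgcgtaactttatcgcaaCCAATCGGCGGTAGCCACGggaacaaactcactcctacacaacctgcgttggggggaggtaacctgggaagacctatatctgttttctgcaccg

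In the Creld2 window the element reads from the opposite strand, so that its complement stands in capitals. A match is a description of the letters and not evidence of binding.

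The deleted gene was read first. Levels here and in what follows are log2 intensity minus the log2 75th percentile of the same array, so that a level of 0 is the 75th percentile. Arrays are named in the order UT, UT, DSS, DSS, with the WT arrays by their titles. The level of Atf6b was -7.64, -6.49, -4.14 and -7.62 on the ATF6bKO arrays. It was -1.10, -0.39, -0.18 and 0.16 on the WT arrays. It was -0.01, -0.07, -0.14 and 0.08 on the ATF6aKO arrays. The 4 ATF6bKO arrays thus lay below every other array, and Atf6b was well above background on 1 of them, the first DSS array, against 4 of 4 WT arrays. The difference was -6.09 (SE 0.729, n = 4 arrays per genotype, adjusted p = 0.00204 by limma with Benjamini-Hochberg adjustment over 23239 genes). Since most ATF6bKO arrays were not above background, the size is a bound: Atf6b was at least 28.2-fold lower. Such bounds set the brighter genotype against the lowest signal that counts as well above background.

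**Figure D1:**
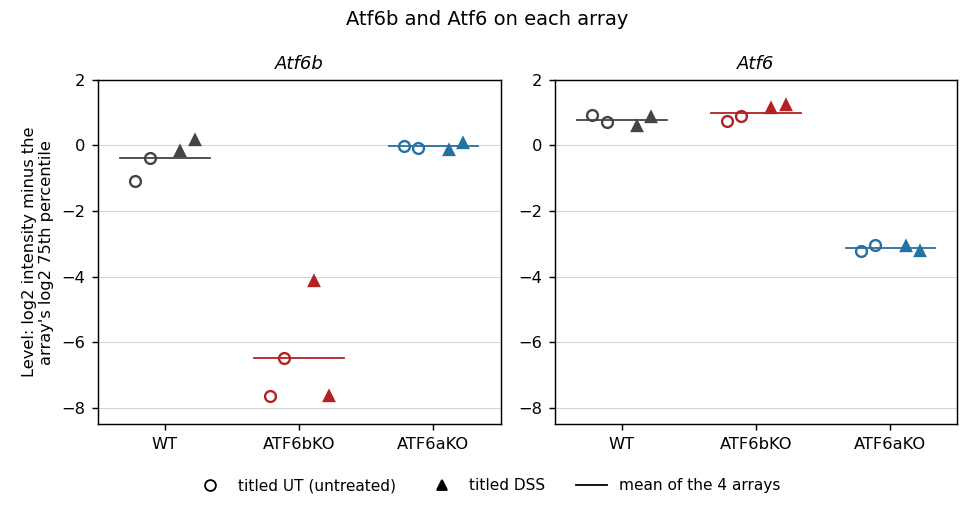
Level of Atf6b (left) and Atf6 (right) on each of the 12 arrays, as log2 intensity relative to the array's 75th percentile; open circles are arrays titled UT, triangles arrays titled DSS and lines the mean of 4 arrays. Atf6b lay at or below -4.14 on the ATF6bKO arrays alone, and Atf6 lay at or below -3.04 on the ATF6aKO arrays alone.

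The partner gene Atf6 did not pass the test. Its level was 0.74, 0.89, 1.14 and 1.22 on the ATF6bKO arrays and 0.93, 0.72, 0.60 and 0.85 on the WT arrays. These values overlapped, and the difference was 0.22 (SE 0.139, adjusted p = 0.233). On the ATF6aKO arrays Atf6 was at -3.22, -3.04, -3.08 and -3.23, below all others.

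A large part of the transcriptome differed between the 2 genotypes. Of 23239 genes tested, 9757 (42%) passed an adjusted p of 0.05, 4710 (20.3%) higher and 5047 (21.7%) lower in ATF6bKO. Of these, 4731 (20.4%) differed by at least 1 log2 unit, 2552 (11%) higher and 2179 (9.38%) lower. The 4 ATF6bKO arrays did not overlap the 4 WT arrays for 6523 genes (28.1%). The median difference over all genes was -0.02, and 48.3% of the calls were higher. With normexp background correction the median was 0.34 and 74.7% of calls were higher, and in the authors' deposited value table these were 0.61 and 90.1%. The shares just given are the background against which the counts of any gene list have to be read. The count was 5949 without the second WT array titled DSS, and it was 4974 or 3907 with an additive treatment term read from the WT treatment fields or with no treatment term.

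**Figure D2:**
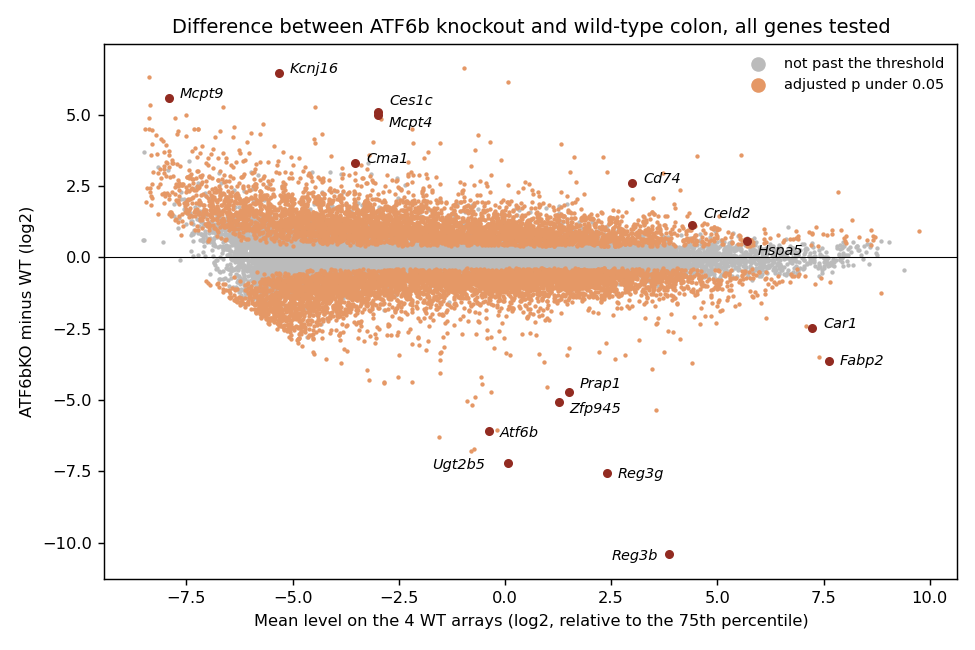
Difference ATF6bKO minus WT (log2, vertical axis) against the mean level on the 4 WT arrays (horizontal axis) for the 23239 genes tested; orange points passed an adjusted p of 0.05 and dark red points are genes described in the text. Reg3b lies lowest at -10.41, Kcnj16 is marked at 6.45, Creld2 lies at 1.14 and Hspa5 at 0.57.

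The named genes furthest below WT included antimicrobial lectins, conjugating enzymes and transporters of the epithelium. The genes furthest below or above WT were taken from called genes whose arrays did not overlap between the genotypes. Their separation is thus part of the choice. Reg3b and Reg3g encode secreted C-type lectins that kill bacteria at the gut surface. Reg3b was at 3.82, 3.49, 3.93 and 4.24 on the WT arrays. It was at -7.65, -8.06, -2.83 and -7.62 on the ATF6bKO arrays. The groups were far apart, with the first ATF6bKO DSS array the highest of its genotype. The difference was -10.41 (adjusted p = 0.00107), and Reg3b was at least 426-fold lower. Reg3g was at 2.12, 2.55, 2.43 and 2.48 on the WT arrays and at -6.09, -7.68, -1.40 and -5.44 on the ATF6bKO arrays, at least 120-fold lower (difference -7.55, adjusted p = 0.00173). The array with the highest Reg3b and Reg3g among the 4 is the one on which Atf6b was also above background. Without it the differences were -11.6 for Reg3b and -8.56 for Reg3g, and both kept their call. On that array Ugt2b5 was the lowest of the 4, at -8.03. The ATF6aKO arrays were low as well, between -8.08 and -4.72 for Reg3b.

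Enzymes of the Ugt2b family couple glucuronic acid to bile acids, steroids and drugs for excretion. Ugt2b5, Ugt2b36, Ugt2b37 and Ugt2b38 were among the genes furthest below WT, by which they were chosen. Ugt2b5 was at 1.70, 1.23, -1.61 and -1.02 on the WT arrays and at -7.70, -6.05, -8.03 and -6.80 on the ATF6bKO arrays. It was not above background on any ATF6bKO array and was at least 51.9-fold lower (difference -7.22, adjusted p = 0.000555). Ugt2b36, Ugt2b37 and Ugt2b38 were at least 28.4-fold, 28.8-fold and 33.8-fold lower. These copies are close in sequence and their probes may share signal, so they are not independent. The sulfate transporter Slc13a1 was at least 21.1-fold lower (difference -5.19). Slc3a1, a subunit of the cystine transporter, differed by -4.54, and Kcne2, a potassium channel subunit, was at least 18.5-fold lower. Prap1, a secreted epithelial protein, was at 2.51, 2.70, 0.11 and 0.75 on the WT arrays and between -3.64 and -2.89 on the ATF6bKO arrays (difference -4.72). Sptssb, a subunit of the enzyme that starts sphingolipid synthesis, was at 4.59, 3.60, 2.88 and 3.17 on the WT arrays. On the ATF6bKO arrays it was at -3.33, -2.32, -1.47 and -0.01 (difference -5.35, SE 0.412). For the Ugt2b genes, Slc13a1, Kcne2 and Prap1 the 2 WT arrays titled UT lay above the 2 titled DSS. All 4 lay above every ATF6bKO array, which the choice of these genes required. Adam18 and Zfp945 complete the genes with the largest negative differences, together with ccdc198 (-4.71). Adam18 was at least 16.7-fold lower, but a second probe for it was not above background in either genotype, and 2 further probes for Zfp945 gave 0.29 and 0.14.

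The genes furthest above WT included a family of mast cell proteases and several membrane proteins. Kcnj16, a potassium channel, was at 0.25, 1.20, 0.98 and 2.08 on the ATF6bKO arrays and at -4.21, -5.50, -5.56 and -6.02 on the WT arrays. It had the largest positive difference among named genes, 6.45, and 2 further probes for it gave 4.57 and 4.56. Ces1c, a carboxylesterase, was at 1.52, 2.73, 1.61 and 2.56 on the ATF6bKO arrays and at -2.44, -2.87, -3.06 and -3.56 on the WT arrays (difference 5.09). Its relative Ces1f moved the other way, by -3.57, with 0.16, -0.38, -2.21 and -1.51 on the ATF6bKO arrays against 3.24, 3.41, 1.63 and 2.07 on the WT arrays. Pramel39 was at least 22.0-fold higher, AU018091 at least 14.4-fold and the lysozyme-like gene Lyzl1 at least 9.93-fold. The zinc finger gene Zfp385b was at least 20.2-fold higher by 1 of 4 probes, and the other 3 gave differences of 0.50, 0.38 and 1.38. Nectin4, an adhesion protein, differed by 4.33, but a second probe gave 0.87. Syt10, a synaptotagmin, was at 4.36, 3.48, 1.36 and 0.04 on the ATF6bKO arrays, with the 2 UT arrays above the 2 DSS arrays, and at -3.86, -0.99, -2.89 and -0.97 on the WT arrays (difference 4.49). A second probe for Syt10 was not above background in either genotype. Spink5, a protease inhibitor of squamous epithelium, was between -4.58 and -3.30 on 3 ATF6bKO arrays and at 1.44 on the second DSS array. Its difference from WT was 4.51, and 3.33 without that array.

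**Figure D3:**
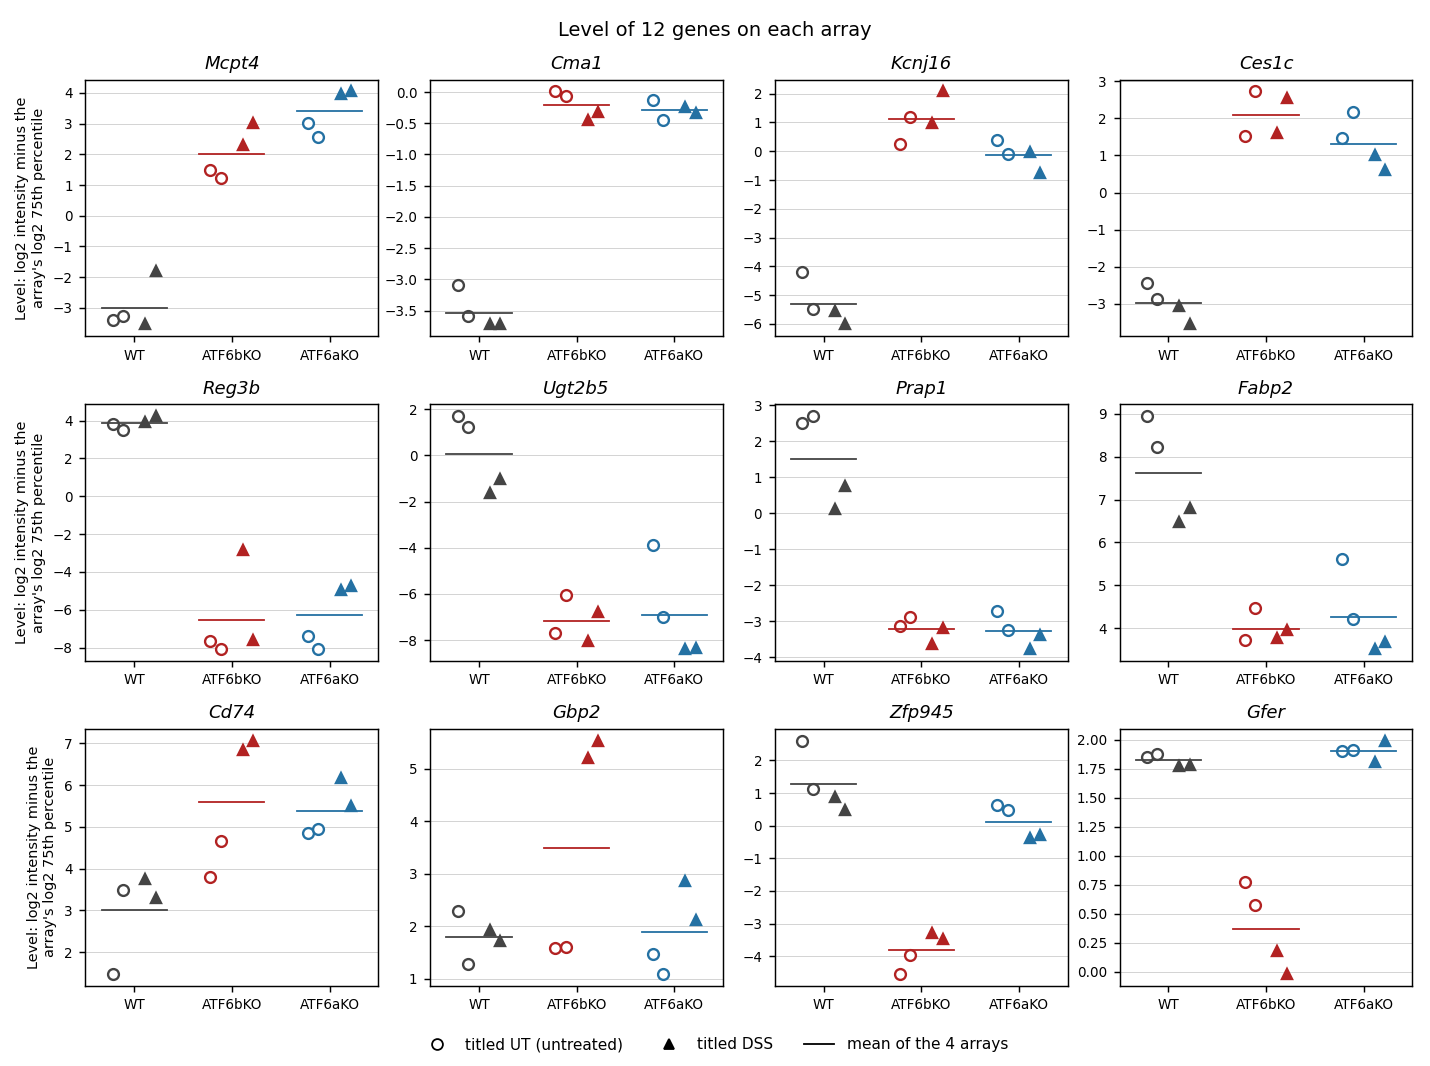
Level of 12 genes on each of the 12 arrays, as log2 intensity relative to the array's 75th percentile; open circles are arrays titled UT, triangles arrays titled DSS and lines the mean of 4 arrays, and each panel has its own vertical scale. For the genes of the upper 2 rows the ATF6bKO and ATF6aKO arrays lay on the same side of WT, whereas for Gfer and for the probe of Zfp945 drawn here the ATF6bKO arrays lay below all 8 others.

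Most of these genes were also far from WT in ATF6aKO. On the ATF6aKO arrays Kcnj16 was between -0.77 and 0.39, Ces1c between 0.60 and 2.17 and Prap1 between -3.77 and -2.72. Ugt2b5 was between -8.39 and -3.89 there. For Kcnj16 the 2 knockouts overlapped at their edges, and for Prap1 and Ugt2b5 the ranges overlapped widely. The WT arrays are the only group on the older design and the WT slide, so a difference that both knockouts show from WT is one that genotype and slide share. The direct comparison of ATF6bKO with ATF6aKO, which also differ in slide, called 2779 of 23239 genes (12%), 1812 higher (7.8%) and 967 lower (4.16%) in ATF6bKO. That count did not hold when 1 array was left out. It was 831, 770 and 37 without the second UT, the first DSS and the second DSS array of ATF6bKO and 4730 without its first UT array. It was 125, 136, 48 and 5 without each ATF6aKO array in the order above. The calls of that comparison are therefore given sparingly, and values on all 12 arrays stand in their place.

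ATF6bKO colon stood apart from both other genotypes at fewer genes. Its 4 arrays lay outside all 8 WT and ATF6aKO arrays for 888 of 23239 genes (3.82%), with or without a call. For 528 genes (2.27%) they did so and also passed the threshold in both comparisons. In all, 991 genes (4.26%) passed in both in the same direction, 693 higher (2.98%) and 298 lower (1.28%), but the 2 comparisons share the 4 ATF6bKO arrays. Without the first UT array of ATF6bKO that count was 1970. It was 295, 314 and 22 without its second UT, first DSS and second DSS array, and 51, 65, 25 and 2 without each ATF6aKO array.

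Zfp945, a zinc finger gene of a large family with close copies, lay below both by 1 of its 3 probes. By that probe, the brightest, it was at -4.54, -3.95, -3.28 and -3.48 on the ATF6bKO arrays. It was at 2.60, 1.11, 0.87 and 0.49 on the WT arrays and at 0.62, 0.47, -0.39 and -0.28 on the ATF6aKO arrays. By that probe the ATF6bKO arrays lay below all 8 others. The difference was -5.08 from WT (SE 0.341, adjusted p = 0.00061) and -3.92 from ATF6aKO (SE 0.151, adjusted p = 0.00127). The other 2 probes for Zfp945, well above background on all 8 arrays, gave 0.29 and 0.14, and the mean of its probes gave -1.55 from WT. Gfer, a sulfhydryl oxidase of the mitochondrial intermembrane space, was at 0.77, 0.57, 0.18 and -0.02 on the ATF6bKO arrays. On all 8 other arrays Gfer lay between 1.77 and 1.99, so the other genotypes did not differ visibly from each other (difference from WT -1.45). Kremen2, a receptor that restrains Wnt signalling, was at -1.21, -1.72, -2.62 and -2.35 on the ATF6bKO arrays and between -0.82 and 0.32 on the other 8 (difference from WT -1.65). Crisp3, a secreted cysteine-rich protein, was not well above background on any ATF6bKO array and was at least 8.63-fold lower than WT. Igfals, a carrier of insulin-like growth factors, was at least 1.72-fold lower than WT, but its difference of -2.81 became 0.33 with normexp background correction. Car1, a carbonic anhydrase abundant in colonocytes, was at 5.62, 4.73, 4.19 and 4.44 on the ATF6bKO arrays, at 7.59, 8.02, 6.22 and 7.09 on the WT arrays and at 5.68, 5.85, 7.11 and 6.40 on the ATF6aKO arrays. Its highest ATF6bKO value came close to the lowest ATF6aKO value (difference from WT -2.48). Tacr3, a neurokinin receptor, was at least 1.29-fold lower than WT, and its difference of -1.84 became 0.75 with normexp correction. A second probe for Tacr3 was not above background in either genotype.

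Among genes above both, S100g, a calcium-binding protein of the intestinal epithelium, was at 2.09, 1.75, 1.19 and 2.51 on the ATF6bKO arrays. It was between -2.74 and -0.68 on the WT arrays and between -1.25 and -0.26 on the ATF6aKO arrays. S100g thus lay above every other array in all 4 samples. Lyzl1 was between -3.53 and -2.25 on the ATF6bKO arrays, and its highest value elsewhere was -4.77 on an ATF6aKO array. Tbx15 and Sox5, both transcription factors, were at least 4.64-fold and 3.33-fold higher than WT. For Tbx15 this rests on 1 of 3 probes: the others gave 1.22 and -1.48, the last above background on 3 WT arrays and 0 ATF6bKO arrays. Ppp4r4, a phosphatase subunit, was between -3.57 and -2.36 on the ATF6bKO arrays and between -5.43 and -4.62 on the other 8, but a second probe gave a difference of 0.16. Tmem52b, Pramel39 and Deup1 complete the set of 8, with bounds of 6.21-fold, 22.0-fold and 3.16-fold above WT.

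Of the 8 named genes below both genotypes, 6 lie on mouse chromosome 17, where Atf6b itself lies: Atf6b, Zfp945, Igfals, Crisp3, Kremen2 and Gfer. Car1 and Tacr3 lie on chromosome 3. The 8 named genes above both lie on chromosomes 3, 5, 6, 6, 9, 12, 18 and X. This was noticed after the values were seen and is given as a description, with no test. On chromosome 17 the ATF6bKO arrays lay outside all 8 others for 47 of 706 tested genes (6.66%), 31 of them below (4.39%) and 16 above (2.27%). On the 19 other chromosomes, leaving out Y, the share ran from 2.1% to 4.3%, with 0.92% to 2.19% below and 1.18% to 2.32% above. The chromosome 17 share below the others was thus higher than on any other of these chromosomes, and the share above was within their range. Against WT alone the called share of chromosome 17 was 41.2%, within the range of 37.4% to 45% elsewhere. By gene order, the block of 50 tested genes from 201 to 250 genes before Atf6b held 12 such genes (24%), and the outermost block on that side held 7 of 42 (16.7%). The block of 50 tested genes just before Atf6b held 4, and the block just after it held 1.

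**Figure D4:**
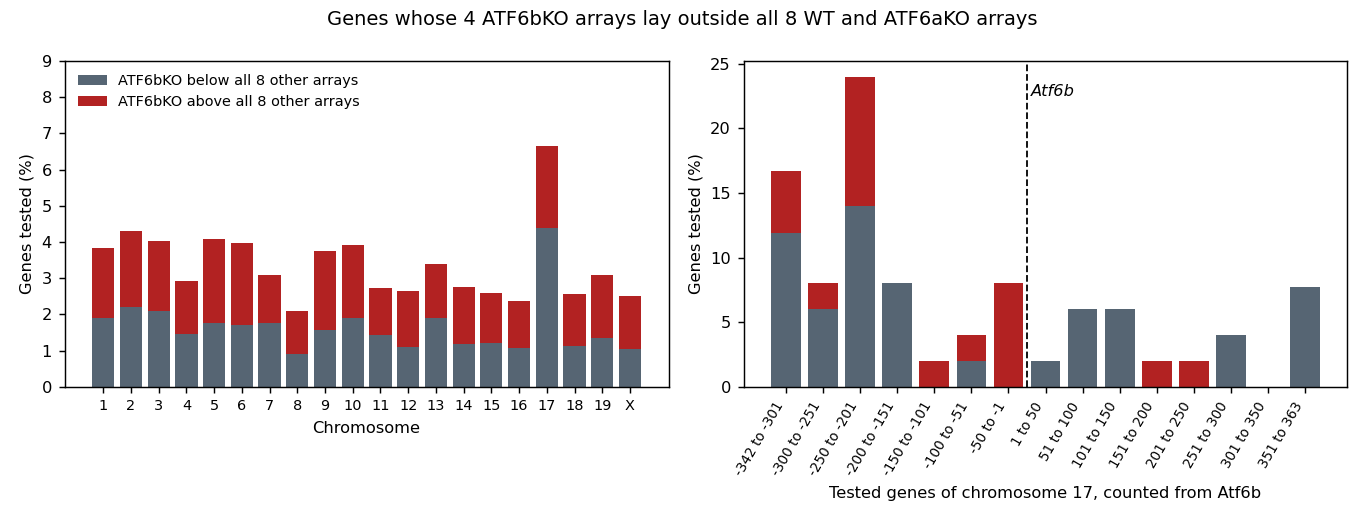
Share of tested genes (%) whose 4 ATF6bKO arrays lay below (grey) or above (red) all 8 WT and ATF6aKO arrays, by chromosome (left, Y left out) and along chromosome 17 in blocks of up to 50 tested genes counted from Atf6b (right, dashed line at Atf6b). Chromosome 17 reaches 6.66% against 2.1% to 4.3% on the 19 others shown, and its highest block reaches 24%.

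The genes next to Atf6b were looked at one by one. Of the 25 RefSeq genes on each side, 25 were measured, of which 13 were higher and 5 lower than WT, beside 42% of all genes called. The higher ones include the MHC class II genes H2-Ab1 (1.73) and H2-Aa (0.84), which are counted again in the list of such genes further on. The complement genes C4b and C2 were higher by 1.45 (SE 0.191, adjusted p = 0.00266) and 1.20 (SE 0.222, adjusted p = 0.00724), and Cfb by 0.61. C2 was at -0.21 and 0.10 on the UT arrays of ATF6bKO and at 1.97 and 2.54 on the DSS arrays, against -0.61 to 0.21 on the WT arrays, so its UT arrays overlapped WT. Agpat1, an enzyme of phospholipid synthesis, was between 2.13 and 2.43 on the ATF6bKO arrays and between 0.29 and 1.29 on the WT arrays (difference 1.51), but a second probe gave 0.15. Tnxb, a matrix protein whose gene adjoins Atf6b, was higher by 1.27. Of the immediate flank on the other side, Fkbpl differed by 0.0354 (adjusted p = 0.859) and Prrt1 by -1.21, the latter 0.10 with normexp correction. For Agpat1, Tnxb, C4b and Prrt1 the ATF6aKO arrays had levels like those of ATF6bKO. BC051142 was the only one of these 25 with all 4 ATF6bKO arrays above all 8 others, from -3.48 to -2.80. The count of 18 was 10, 10 and 9 without the second WT array titled DSS, the second UT array or the first DSS array of ATF6bKO. It was 6 with an additive treatment term read from the WT treatment fields and 4 with no treatment term.

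The unfolded protein response was described from lists of its known members. Of 18 sensors and bZIP factors, 2 were higher, 4 were lower and 12 did not pass, and their median difference was -0.20. Over all genes 20.3% were higher and 21.7% lower. The kinases Eif2ak3 and Ern1, the sensors of the other branches, differed by -0.19 (adjusted p = 0.323) and 0.03 (adjusted p = 0.916). Mbtps1, the site-1 protease that cuts ATF6 proteins, was between 4.04 and 4.19 on the ATF6bKO arrays and between 2.80 and 3.59 on the WT arrays (difference 0.84, adjusted p = 0.00697), but 2 further probes of lower level gave -0.15 and 0.20. Creb3l2, a related membrane-bound factor, was at -1.35, -0.99, -1.01 and -0.68 against -4.53, -3.42, -2.15 and -2.14, a difference of 2.05. Atf4, the factor of the integrated stress response, was lower (difference -0.85, adjusted p = 0.00523). Atf4 lost its call with an additive treatment term read from the WT treatment fields and with no treatment term. It also lost it in the authors' deposited value table. Xbp1, the factor activated by Ern1, differed by -0.38 (adjusted p = 0.276). The 2 higher calls became 4 without the second WT array titled UT.

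ER chaperones and folding enzymes did not move together. Of 25 tested, 4 were higher and 3 lower, fewer than the background share of all genes, and the median was -0.09. Hspa5, the BiP chaperone whose window is shown above, was at 5.67, 5.96, 6.72 and 6.70 on the ATF6bKO arrays. It was at 5.96, 5.41, 5.35 and 6.04 on the WT arrays. Only the 2 DSS arrays of ATF6bKO lay above the WT arrays, and the difference of 0.57 did not pass (SE 0.215, adjusted p = 0.071). Hsp90b1, the GRP94 chaperone, differed by 0.00 (adjusted p = 0.995), Calr, calreticulin, by -0.11 (adjusted p = 0.675) and the disulfide isomerase Pdia4 by -0.23 (adjusted p = 0.359). Creld2, a disulfide-linked folding factor, was at 5.02, 5.17, 5.88 and 6.10 against 4.10, 4.11, 4.60 and 4.82 on the WT arrays and 4.81, 4.39, 4.71 and 4.77 on the ATF6aKO arrays. All 4 ATF6bKO values lay above all 8 others, and the difference from WT was 1.14 (SE 0.137, adjusted p = 0.00206). Hyou1, the exchange factor of BiP, was higher by 1.0, and Dnajc10, a reductase that aids degradation, was lower, with 4 probes that ran from -1.08 to -0.96. The 4 higher calls were 2 without the first WT array titled DSS or any of the 4 ATF6bKO arrays. The 3 lower calls were 1 without the first WT array titled DSS, the second UT array or the first DSS array of ATF6bKO and 6 without the first WT array titled UT.

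Genes of ER-associated degradation, which carry misfolded proteins to the proteasome, were called more often upward against WT but not against ATF6aKO. Of 20 tested, 7 were higher and 2 lower than WT, with a median of 0.16, beside 20.3% and 21.7% of all genes. Over all genes 42% were called. Against ATF6aKO 0 were higher and 2 lower, with a median of -0.1, beside 7.8% and 4.16% of all genes. The summed intensity of the list, scaled per array as above, was 147 to 167 on the ATF6bKO arrays. It was 162 to 174 on the ATF6aKO arrays and 126 to 149 on the WT arrays. As a list, these genes were thus not higher in ATF6bKO than in ATF6aKO. Syvn1, the ubiquitin ligase whose window is shown above, was at 4.64, 5.15, 4.82 and 4.74 on the ATF6bKO arrays and at 3.22, 3.23, 4.27 and 4.50 on the WT arrays. The groups did not overlap (difference 1.03, SE 0.16, adjusted p = 0.00415), while the ATF6aKO arrays lay between 4.59 and 4.84. A second, dim probe for Syvn1 gave -0.01. Derl3 was higher by 1.21, the ubiquitin-conjugating enzyme Ube2j1 by 0.85 (0.32 by a second probe), Sel1l by 0.59 and Herpud1 by 0.56. The count of 7 was 3 without either WT array titled DSS or the first UT array of ATF6bKO and 2 without any of the other 3 ATF6bKO arrays. Relative to all genes the median difference of the list from WT was 0.19, and it was -0.26 with normexp correction. Of the 11 tested members of these lists that hold an element in their window, 4 were higher (Creld2, Derl3, Herpud1 and Syvn1), 0 were lower and 7 did not pass, beside 20.3% of all genes higher. From ATF6aKO these 4 differed by 0.87, 0.36, -0.07 and 0.11 in that order. Of 20 alternative runs, Herpud1 lost its call in 11, Derl3 in 8, Syvn1 in 1 and Creld2 in 0.

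Targets of ATF4 and CHOP, the factors of amino acid and stress signalling, were called both ways against WT and only lower against ATF6aKO. Of 25 tested, 7 were higher and 6 lower than WT, with a median of 0.07, beside 20.3% and 21.7% of all genes. Against ATF6aKO 0 were higher and 16 lower, with a median of -0.8, beside 7.8% and 4.16% of all genes. Calls of that comparison depended on single arrays, as described above, and the knockouts also differ in slide. The amino acid transporter genes Slc7a11 and Slc7a5 were higher than WT by 2.02 and 1.05. Further probes for Slc7a11 gave 0.10 and 1.35, and under the strict filter, which kept the first of these, it did not pass (difference 0.10, adjusted p = 0.607 by limma). Nupr1, a small stress protein, was at 4.42, 4.80, 4.68 and 4.82 on the ATF6bKO arrays and at 8.38, 7.46, 6.27 and 6.19 on the WT arrays (difference -2.40, adjusted p = 0.00116). Cth, an enzyme of cysteine synthesis, differed by -1.76 and the hormone gene Stc2 by -1.30. Chac1 and Trib3 differed from WT by -0.20 and 0.01 and did not pass.

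**Figure D5:**
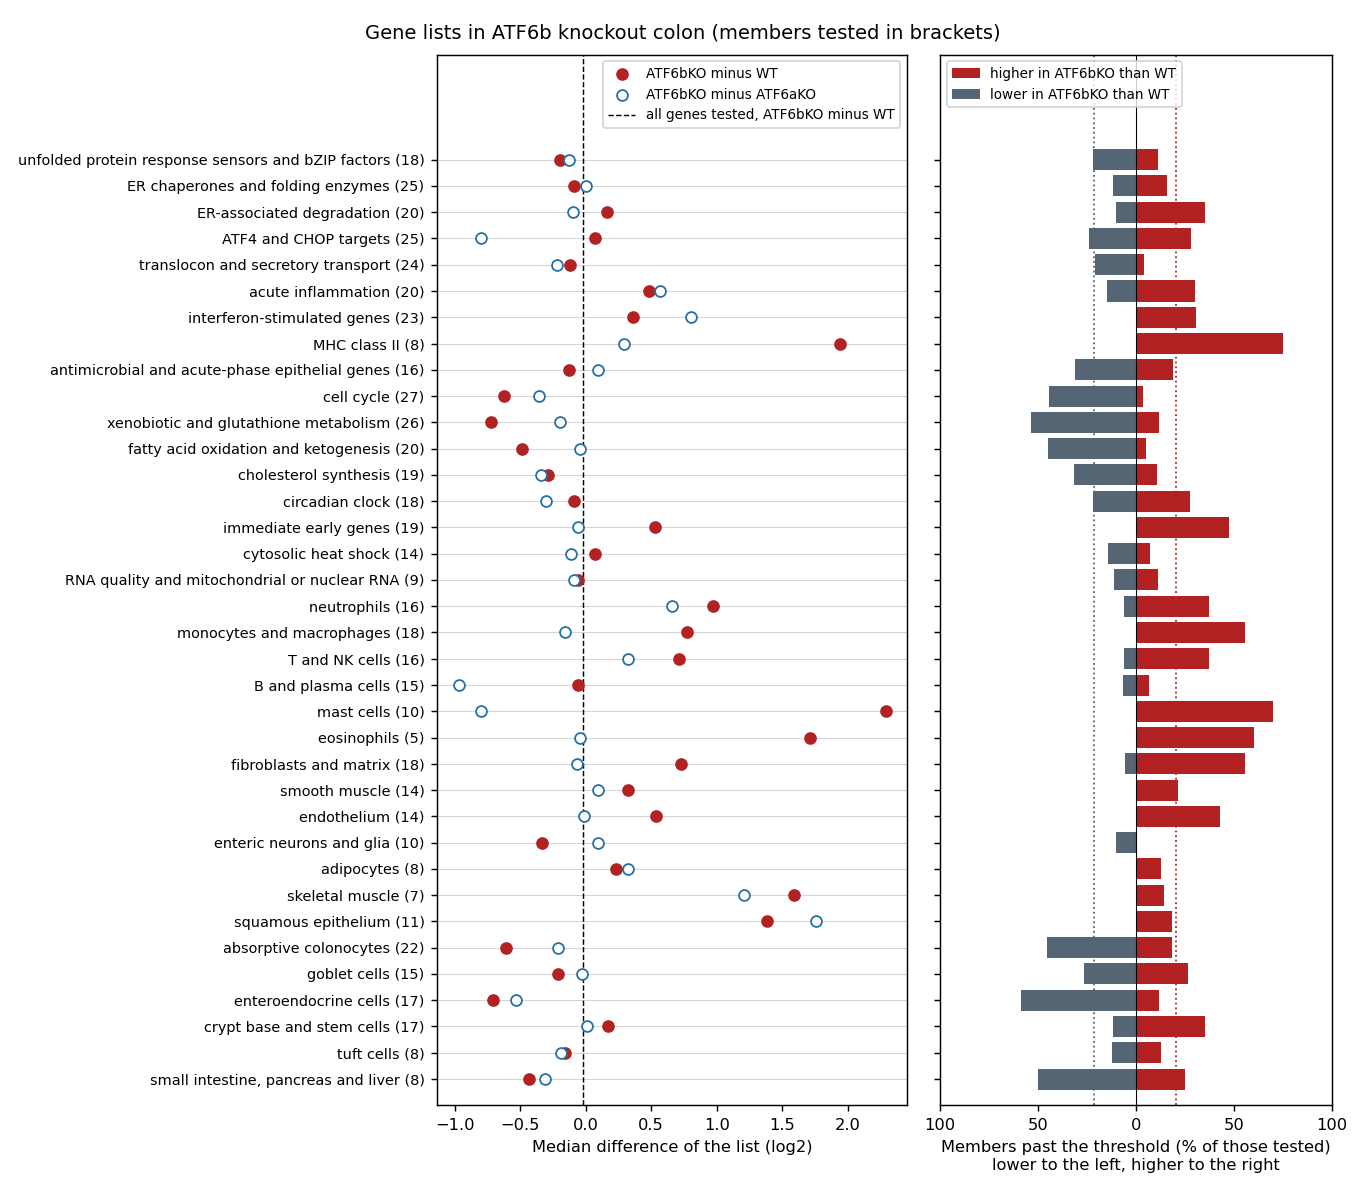
Left, median log2 difference of each gene list for ATF6bKO minus WT (filled) and ATF6bKO minus ATF6aKO (open), with the median of all genes as a dashed line; right, share of tested members (%) called higher or lower than WT, with dotted lines at the shares of all genes (20.3% higher and 21.7% lower). Mast cell genes and MHC class II genes have medians of 2.29 and 1.94, and ER chaperones lie at -0.09.

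Genes of mast cells had the highest median of the lists, and 7 of 10 were higher than WT. In whole colon, more cells of a type and more RNA per cell cannot be told apart. Of the 10 tested, 0 were lower and 3 did not pass, the median was 2.29, and the count was 7 when any 1 array was left out. Over all genes 20.3% were higher and 21.7% lower. The proteases Mcpt1 and Mcpt2 mark mucosal mast cells, and Mcpt4 is a chymase of connective tissue mast cells. Mcpt4 was at 1.49, 1.24, 2.29 and 3.01 on the ATF6bKO arrays. It was at -3.39, -3.27, -3.54 and -1.79 on the WT arrays and at 3.02, 2.58, 3.97 and 4.05 on the ATF6aKO arrays. The ATF6bKO arrays lay far above WT (difference 5.0, adjusted p = 0.000832) and mostly below ATF6aKO. Mcpt1 differed by 4.86, Mcpt2 by 4.68 and Cma2 by 5.27, and Mcpt9 was at least 14.4-fold higher. These proteases are close in sequence, so their probes may share signal. Cma1, another mast cell chymase, was between -0.45 and 0.01 on the ATF6bKO arrays and between -3.72 and -3.09 on the WT arrays (difference 3.32, adjusted p = 0.000316), and the ATF6aKO arrays lay in the same range as ATF6bKO. Cpa3, carboxypeptidase of mast cells, was higher by 3.17, the IgE receptor subunit gene Fcer1a by 1.41 and the tryptase gene Tpsb2 by 1.34. Of the 3 that did not pass, Kit, the stem cell factor receptor, differed by -0.43 (adjusted p = 0.0507), Hdc by 0.23 and Ms4a2 by 0.25, and Ms4a2 was not above background on any ATF6bKO array. The summed level of the 10 markers, in units of the 75th percentile, was 8.27 to 20.4 on the ATF6bKO arrays, 2.09 to 3.89 on the WT arrays and 17.1 to 41.9 on the ATF6aKO arrays. Of 5 eosinophil markers, 3 were higher and 0 lower: Ccr3 by 2.27, Ear1 by 1.72 and Il5ra by 1.71, although a second probe for Ccr3 was not above background. Il5ra was well above background on 3 ATF6bKO arrays and 1 WT array. The summed level of these markers was 0.442 and 0.624 on the UT arrays of ATF6bKO, within the WT range of 0.314 to 0.753. It was 1.25 and 1.17 on its DSS arrays and 0.469 to 1.37 on the ATF6aKO arrays.

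Antigen presentation and interferon genes were called higher and not lower. Of 8 MHC class II genes tested, 6 were higher and 0 lower, with a median of 1.94, beside 20.3% and 21.7% of all genes. H2-Ab1 and H2-Aa are also among the higher neighbours of Atf6b, so the counts share these genes. Against ATF6aKO the median of the list was 0.29. Its summed level was 40.1 to 339 on the ATF6bKO arrays, 69.9 to 165 on the ATF6aKO arrays and 20.8 to 44.9 on the WT arrays. Cd74, the invariant chain, was at 3.81, 4.65, 6.85 and 7.06 on the ATF6bKO arrays and at 1.48, 3.48, 3.75 and 3.29 on the WT arrays (difference 2.59, adjusted p = 0.00568). The lowest ATF6bKO value stood just above the highest WT value. Ciita, the activator of these genes, was at -1.05, -0.87, 1.71 and 1.36 against -2.54, -1.83, -1.16 and -2.27 (difference 2.24). The MHC class II count was 5 or 2 with an additive treatment term read from the titles or from the treatment fields of WT, and 1 with no treatment term. Of 23 interferon-stimulated genes, 7 were higher and 0 lower, with a median of 0.36, beside 42% of all genes called and 20.3% higher. Gbp2, a guanylate-binding protein, was at 1.59 and 1.60 on the UT arrays of ATF6bKO and at 5.20 and 5.53 on its DSS arrays. It was between 1.28 and 2.28 on the WT arrays and between 1.09 and 2.85 on the ATF6aKO arrays. The UT arrays thus lay within WT and the DSS arrays above every other array (difference 1.68, adjusted p = 0.00314). Igtp gave the same order, with 1.55, 1.56, 5.03 and 5.20 against 1.16 to 2.92 on WT (difference 1.20). The interferon count was 4 without the second WT array titled DSS or the second DSS array of ATF6bKO, and 1 or 0 with an additive treatment term by titles or by treatment fields and 0 with no treatment term.

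Markers of other immune cells were higher in part. Beside the counts that follow, 20.3% of all genes were higher and 21.7% lower. Of 16 neutrophil markers, 6 were higher and 1 lower, and the count of 6 was 10 without the first WT array titled DSS. The summed level of the neutrophil markers was 3.12 and 3.04 on the UT arrays of ATF6bKO, within the WT range of 2.69 to 5.64. It was 29.6 on each DSS array of ATF6bKO and 4.56 to 7.54 on the ATF6aKO arrays. Retnlg, a resistin-like protein of neutrophils, was at -1.71, -0.59, 1.28 and 0.99 on the ATF6bKO arrays and between -6.23 and -3.46 on the WT arrays (difference 4.31). S100a9, a subunit of calprotectin, was at -3.70, -3.46, 4.22 and 4.19 on the ATF6bKO arrays and at -1.68, -3.12, 0.15 and -1.72 on the WT arrays, so its UT arrays were below WT and its DSS arrays above (difference 1.90). Of 18 markers of monocytes and macrophages, 10 were higher and 0 lower, with a median of 0.77, and the Fc receptor gene Fcgr1 was higher by 1.77. Fcgr1 was at -0.41 and -0.47 on the UT arrays of ATF6bKO and at 2.28 and 2.39 on its DSS arrays, against -1.25 to -0.06 on the WT arrays, so its UT arrays lay within WT. It did not pass with an additive term by treatment fields (adjusted p = 0.0908 by limma) or with no treatment term (adjusted p = 0.112). The summed level of the list was 160 and 163 on the UT arrays of ATF6bKO, 437 and 488 on its DSS arrays and 165 to 317 on the WT arrays, so its UT arrays lay below WT and its DSS arrays above. The count of 10 was 6 without the second WT array titled DSS or the first UT array of ATF6bKO and 5 without any of the other 3 ATF6bKO arrays. Of 15 markers of B and plasma cells, 1 was higher and 1 lower, with a median of -0.06, and each call was lost when 1 of several arrays was left out.

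Genes of epithelial metabolism were called lower more often than higher. Of 26 genes of xenobiotic and glutathione metabolism, 14 were lower and 3 higher, with a median of -0.72, beside 21.7% of all genes lower. The 3 higher calls were 6 without the second WT array titled UT. Apart from the Ugt2b genes, Cyp2c55 differed by -2.12, Ugt1a1 by -2.14, the sulfotransferase gene Sult1a1 by -1.59 and Nqo1, a quinone reductase, by -1.33. Cyp1a1, the classical target of the aryl hydrocarbon receptor, went the other way and was at least 7.80-fold higher, with -2.94, -3.49, -4.30 and -2.16 on the ATF6bKO arrays and no WT array above background. Of 20 genes of fatty acid oxidation and ketogenesis, 9 were lower and 1 higher, with a median of -0.49. Acads, short-chain acyl-CoA dehydrogenase, differed by -1.52. Against ATF6aKO the medians of the xenobiotic and fatty acid lists were -0.20 and -0.04. The summed level of the fatty acid list was 193 to 235 on ATF6bKO, 185 to 261 on ATF6aKO and 298 to 319 on WT arrays. That of the xenobiotic list was 350 to 479, 392 to 567 and 445 to 596 in the same order. In the authors' deposited value table the lower counts of these 2 lists were 10 and 2, but their medians relative to all genes were -0.68 and -0.44, close to -0.69 and -0.47 here.

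Markers of absorptive colonocytes were lower in 10 of 22 and higher in 4, with a median of -0.61, beside 21.7% and 20.3% of all genes. The 4 higher calls were 2 without the second WT array titled DSS or the second DSS array of ATF6bKO. Besides Car1 they included the guanylin gene Guca2a (-1.24), the uroguanylin gene Guca2b (-1.56) and the chloride-bicarbonate exchanger Slc26a3 (-1.12). The sodium channel subunits Scnn1a and Scnn1g were higher, by 1.19 and 2.05. Fabp2, a fatty acid-binding protein more typical of small intestine, was at 8.95, 8.24, 6.48 and 6.80 on the WT arrays and between 3.72 and 4.48 on the ATF6bKO arrays (difference -3.64, adjusted p = 0.00061). Alpi, intestinal alkaline phosphatase, differed by -3.34, but its second probe by -0.46, and Sis, sucrase-isomaltase, was at least 3.35-fold lower, a difference of -2.65 that was 0.25 with normexp correction. Anpep and Fabp6, of the same list, were higher by 1.94 and 2.83. The summed level of the list of small intestine, pancreas and liver was 91.1 to 496 on the WT arrays, 16.5 to 25.4 on the ATF6bKO arrays and 16.6 to 52.2 on the ATF6aKO arrays. Most of that sum on the WT and ATF6bKO arrays was Fabp2. By count, 4 of 8 members tested were lower and 2 higher, with a median of -0.43. Relative to all genes the median was -0.41, and it was 0.33 with normexp correction. The part of this list in the lower epithelial genes was not tested. Of 17 enteroendocrine genes, 10 were lower and 2 higher, with a median of -0.71. Cck, cholecystokinin, was at -2.01, -1.62, -0.59 and -0.74 on the ATF6bKO arrays and between 0.73 and 1.17 on the WT arrays (difference -2.19). Tph1, which makes serotonin in enterochromaffin cells, was between -1.43 and -0.67 against 0.70 to 0.93 (difference -1.79, adjusted p = 0.000882). The 10 lower calls were 5 without the second WT array titled DSS and 6 without the second DSS array of ATF6bKO. Of 15 goblet cell genes, 4 were higher and 4 lower. The 4 higher calls were 1 without the first WT array titled DSS or the second array of either ATF6bKO group, and 2 without the second WT array titled DSS or the first DSS array of ATF6bKO. The 4 lower calls were 2 without either WT array titled DSS, the first UT array or either DSS array of ATF6bKO.

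Of 18 markers of fibroblasts and matrix, 10 were higher and 1 lower, with a median of 0.73, beside 20.3% and 21.7% of all genes. Against ATF6aKO 0 were higher and 0 lower, with a median of -0.07. Col1a1, a chain of type I collagen, was at 3.74, 3.76, 4.14 and 4.70 on the ATF6bKO arrays and at 1.37, 0.72, 2.79 and 2.61 on the WT arrays. The groups did not overlap, 3 probes gave 2.02 to 2.21, and the difference was 2.21 (adjusted p = 0.00112), while the ATF6aKO arrays lay between 3.71 and 4.77. Of 27 cell cycle genes, 12 were lower and 1 higher, with a median of -0.62, beside 21.7% and 20.3% of all genes. Cdk1, the mitotic kinase, was at -0.15, -0.28, -2.45 and -2.82 on the ATF6bKO arrays and at 1.67, 1.27, -0.59 and -0.91 on the WT arrays. The UT arrays of ATF6bKO thus lay between the 2 pairs of WT arrays, and the groups overlapped (difference -1.79, adjusted p = 0.00118). With an additive treatment term read from the WT treatment fields, or with no treatment term, 0 cell cycle genes were lower.

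The clock genes Dbp and Nr1d2, which cycle over the day, were lower. Dbp was at 0.93, 0.83, 1.40 and 1.99 on the ATF6bKO arrays and between 2.94 and 3.93 on the WT arrays (difference -2.30). On the ATF6aKO arrays it was at 2.34, 4.63, 0.40 and 0.21. Nr1d2 differed by -2.02, whereas Nfil3, which opposes Dbp, was higher by 1.48. Of 18 clock genes, 5 were higher and 4 lower, beside 20.3% and 21.7% of all genes. The 4 lower calls were 2 without the second UT or the second DSS array of ATF6bKO. The time of day at which tissue was taken is not given in the labels.

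The second DSS array of ATF6bKO carried genes of squamous epithelium and skeletal muscle. Krt5, a keratin of basal squamous cells, was at -4.07, -4.03, -0.40 and 3.56 on the ATF6bKO arrays and between -3.75 and -3.35 on the WT arrays. Myh1, a myosin of skeletal muscle, was at 2.52 on that array and between -6.70 and -3.75 on the other 3. The summed level of 11 squamous markers was 3.14 to 75 on the ATF6bKO arrays and 3.31 to 5.23 on the WT arrays. That of 7 skeletal muscle markers was 4.61 to 54.7 and 2.80 to 5.44. Of these lists, 2 and 1 members passed against WT, Krt5, Krt6a and Tnnt3. Without the first DSS array of ATF6bKO, 9 and 6 passed. The squamous count was 1 without either UT array of ATF6bKO or any of the 4 WT arrays, and the muscle count was 0 without either UT array of ATF6bKO, either WT array titled DSS or the first titled UT. Spink5, described above, belongs with the genes that were highest on that second DSS array, and the part of this tissue in other results was not tested. Without that array the difference in Mcpt4, Reg3b and Zfp945 kept its call. Markers of RNA quality gave 1 higher and 1 lower of 9, Kcnq1ot1 by 1.89 and Rpl4 by -1.31. A second Kcnq1ot1 probe, above background on 3 WT arrays and 0 ATF6bKO arrays, gave -1.45, and with the mean of its probes Kcnq1ot1 did not pass (0.22, adjusted p = 0.684 by limma).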

How the data were processed

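RNA of whole mouse colon was measured on 12 single-colour Agilent arrays, 4 per genotype. The authors deposited the scanner output of each array, with background-subtracted intensity per spot from Agilent Feature Extraction 10.7.1.1, per the file headers. They also deposited a value table of log2 values, with no statement of their centring in the labels. Set against the scanner files, the WT columns of that table matched arrays of the other WT group and the 2 ATF6aKO replicates of a group were exchanged, while the ATF6bKO columns matched their own arrays. It was used only as an alternative. Its column medians ran from -0.465 to 0.242, and its direction was that of the scanner values.

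Of 45018 spots per array, 1639 control spots were left out, as were 54 to 108 outlier spots. The log2 processed intensity minus the array's log2 75th percentile was averaged over spots of a probe. Probes well above background on both arrays of at least 1 group were kept (30428 of 41174), and the probe of highest mean level stood for its gene. Of 23239 genes tested, 14594 (62.8%) had a symbol from RefSeq tables and the others were kept under the files' names. Array coordinates were not used.

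The fit was limma 3.58.1 in R 4.3.3 (lmFit and eBayes) on 4 group means with 4 residual degrees of freedom, with Benjamini-Hochberg adjustment over all genes and a threshold of 0.05. ATF6bKO minus ATF6aKO was fitted in the same way. The script was tested on simulated data. The number of arrays limits the precision. Named genes were the 15 with the largest difference each way, 8 each way outside both genotypes, up to 4 per list and the 25 neighbours on each side of Atf6b. The 15 were taken from called genes with a symbol and no overlap between the genotypes. The higher genotype was also required to be well above background on all 4 arrays. Other genes were named after their values were seen. Members and lists were chosen with earlier results of these data known. Same-numbered arrays did not deviate together (r from -0.22 to 0.01 over pairs of groups), so the values showed no pairing by number. Whether same-numbered samples were handled together cannot be read from such correlations. Alternatives covered treatment terms, a replicate block, all 12 arrays, background correction, normalization, filters, probe choice, the value table and each array left out. One gene is not reported here.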

Additional observations from a re-analysis of the deposited data

Results flagged for a closer look

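The difference from WT was not the same in the 2 knockouts for 2779 genes, by the test of ATF6bKO minus ATF6aKO itself (limma, adjusted p under 0.05). That count ran from 5 to 4730 when 1 array was left out, and the 2 knockouts lie on different slides.

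Spike-in controls of the E1A series, RNAs added to the samples and used in no comparison, gave 606 to 879 times the 75th percentile on the ATF6bKO arrays. They gave 556 to 763 on the ATF6aKO arrays and 12.0 to 18.7 on the WT arrays. The lowest ATF6bKO array was 32.4 times the highest WT array. This difference follows the slides and the genotypes alike, and its part in the other results was not tested.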

How the results depend on the processing

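The count of genes called between ATF6bKO and WT was 4974 with an additive treatment term read from the WT treatment fields and 3907 with no treatment term, and it ran from 5949 to 12454 when 1 array was left out. The count between ATF6bKO and ATF6aKO was 309 with no treatment term, 1250 with all 12 arrays in 1 fit, 13463 with normexp correction and 1352 with no filter, and it ran from 5 to 4730 when 1 array was left out. The count called in both was 642 and 553 with additive terms by titles and by treatment fields, 115 with no treatment term, 640 with all 12 arrays, 8711 with normexp and 464 with no filter, and from 2 to 1970 with 1 array left out. Called neighbours of Atf6b numbered 6 by treatment fields, 4 with no treatment term and 9 to 19 with 1 array left out. With the replicate block these 4 counts were 8574, 1394, 536 and 15, although the values showed no pairing by number. No slide could be fitted as a block, since each genotype has a slide of its own. Differences changed sign with normexp correction for Igfals (0.33), Tacr3 (0.75), Defb37 (0.49), Sis (0.25), Egfl8 (0.75) and Prrt1 (0.10), and in the authors' deposited value table for Sdc1 (0.08), Snap25 (0.18), Hsp90b1 (0.65), Rnf5 (0.15), Slc44a4 (0.16) and Neu1 (0.03). The cause was not tested. Of 174 named genes with a call, 75 kept it in every alternative run, 94 lost it in at least 1 and 11 changed sign in at least 1. Additive terms by treatment fields cost 68 of them their call, no treatment term 84, and single arrays left out 7 to 29. Relative to all genes, 7 list medians changed sign with normexp: ER-associated degradation (-0.26), ATF4 and CHOP targets (-0.25), smooth muscle (-0.18), heat shock (-0.39), adipocytes (-0.14), B and plasma cells (0.14) and small intestine, pancreas and liver (0.33). Probes near background give bounds only.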
